A study of Mus musculus with 12 samples.

Results

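T-box genes encode transcription factors that share a DNA-binding domain, the T-box. The 8 T-box genes examined here were Tbx1, Tbx2, Tbx3, Tbx4, Tbx5, Tbx15, Tbx18 and Tbx20, a set listed by name, and each was set against the deposited list of BRG1-binding regions of mouse cardiac progenitors (CPs). The list had 4791 rows that named 3473 distinct regions, of which 9 overlapped 1 of these genes or lay within 100 kb of either end of it. Of the 9 regions, 2 lay at promoters, defined as 1 kb either side of an annotated transcription start site (TSS), and 7 lay at no promoter of any gene. All 8 genes were found among the 22380 protein-coding genes of the annotation (GENCODE release M1 on the mm9 assembly).

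The CPs were differentiated from wild type embryonic stem cells of strain W4/129S6 at passage 15-20, as embryoid bodies with VEGF, Activin and BMP4 and then as monolayers with FGFs. Behind the list stand 2 BRG1 ChIP libraries and 1 input library, all from crosslinked chromatin that was cut with MNase to mono- and dinucleosomes. The methods of the paper also give sonication after the MNase step. The series has 12 libraries, and 9 of them, from wild type cardiomyocytes or from cells without BAF170 or BAF60c, were left out. The list states where each region lies but not how high it rose over input, so that no value below has a spread between replicates, the depth is unknown, and a gene without a region may be unbound or may have missed the threshold of the authors. The number of rows equals the count of CP sites in the study, but the number of distinct regions equals its count of cardiomyocyte sites, so that whether the repeated rows are meant, and whether this is the intended list, is uncertain and bears on every count below. Positions carry no RNA level, so the identity of the cells and the expression of the T-box genes could not be checked.

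BRG1 is an ATPase of the BAF complexes, present in them as the alternative to BRM, and the complexes use ATP to move or evict nucleosomes and so alter the access of other proteins to DNA. T-box factors bind DNA through a short sequence whose best known form reads AGGTGTGA, with GGTGTG as its core, and they act in the heart as activators or as repressors. Tbx5 and Tbx20 act early in heart formation, and TBX5 works with GATA4 and NKX2-5. Tbx2 and Tbx3 encode repressors that keep the atrioventricular canal and the conduction system from taking a chamber fate. Tbx1 acts in the pharyngeal mesoderm and the second heart field, and Tbx18 in the sinus venosus and the epicardium. Tbx4 is known for the hindlimb and the lung, and Tbx15 for the skeleton and for adipose tissue. Tbx3 lies next to Tbx5, and Tbx2 next to Tbx4, in gene pairs that are conserved among vertebrates.

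BRG1-binding regions were concentrated at 1 of these loci. The interval that holds Tbx3 and Tbx5 on chromosome 5 had 7 of the 9 regions, Tbx18 had 1, and Tbx2 and Tbx4 shared 1. Tbx1, Tbx15 and Tbx20 had none within 100 kb. At a promoter, 2 of the 8 genes, Tbx3 and Tbx18, had a region, where 11.9% of protein-coding genes did. In the gene body, 1 of the 8 (Tbx18) had a region, against 12.3% of protein-coding genes. Within 100 kb, 5 of the 8 had a region, against 40.3% of protein-coding genes. With counts this small, these shares are a description of the list and no test was made of them. The map of regions by distance from the TSS shows how the 9 regions and their neighbours lie.

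**Figure D1:**
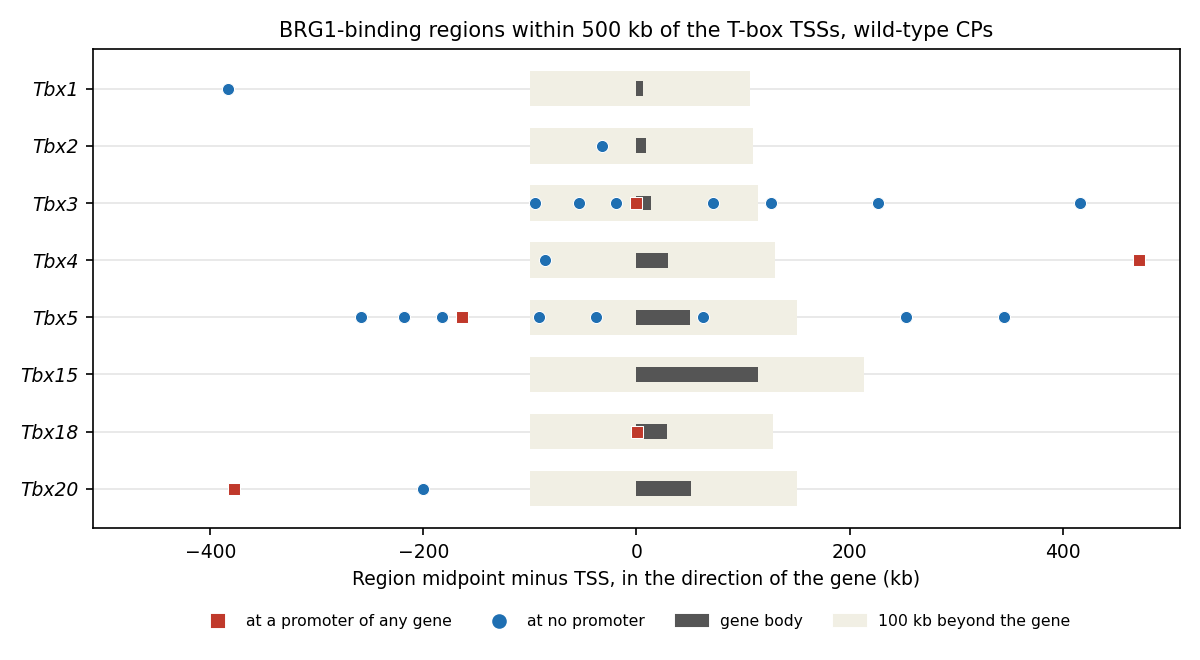
BRG1-binding regions of wild-type CPs around the 8 T-box genes, one gene per line. The x axis gives the distance of a region's midpoint from the 5′-most TSS in kb, in the direction of the gene; squares are regions at a promoter of any gene, circles are regions at no promoter, dark bars are gene bodies and pale bars the genes with 100 kb on either side. Tbx3 and Tbx5 show 5 and 3 regions in their pale bars, with 1 of them in common, and Tbx1, Tbx15 and Tbx20 show none.

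Of the regions at Tbx3, Tbx5 and Tbx2 that carry the T-box core, another listed word or a repeat, 6 are printed here so that the later counts can be read against them. They are given on the plus strand of mm9, 5′ to 3′, whole or as a stretch of 300 bases. Capitals mark the words searched on both strands, which were AGGTGTGA, GGTGTGA and GGTGTG (T-box), the GATA word AGATAA, the word AAGTGG (of the kind bound by NKX2-5), the E-boxes CAGCTG and CACGTG, and CCGCCC (GC box). A word on the minus strand shows as its reverse complement, such as CACACC or TTATCT. The stretches are, in the order below, chr5:120025226-120025525, chr5:120066066-120066365, chr5:120101597-120101896, chr5:120246546-120246785, chr5:120346926-120347225 and chr11:85613506-85613725.
Tbx3, 94.9 kb upstream (first 300 bases): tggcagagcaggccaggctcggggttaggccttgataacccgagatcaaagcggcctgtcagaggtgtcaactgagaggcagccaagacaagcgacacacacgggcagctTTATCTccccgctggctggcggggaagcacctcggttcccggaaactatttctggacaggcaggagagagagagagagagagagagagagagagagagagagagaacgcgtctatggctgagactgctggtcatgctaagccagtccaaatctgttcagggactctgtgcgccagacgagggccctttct
Tbx3, 54.1 kb upstream (first 300 bases): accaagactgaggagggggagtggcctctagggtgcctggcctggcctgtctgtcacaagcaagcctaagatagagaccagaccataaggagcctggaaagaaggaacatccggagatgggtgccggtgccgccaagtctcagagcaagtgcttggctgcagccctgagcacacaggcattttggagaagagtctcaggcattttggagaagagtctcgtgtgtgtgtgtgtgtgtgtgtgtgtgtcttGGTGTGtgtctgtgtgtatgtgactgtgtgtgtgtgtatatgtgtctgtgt
Tbx3, 19.0 kb upstream (300 of 540 bases): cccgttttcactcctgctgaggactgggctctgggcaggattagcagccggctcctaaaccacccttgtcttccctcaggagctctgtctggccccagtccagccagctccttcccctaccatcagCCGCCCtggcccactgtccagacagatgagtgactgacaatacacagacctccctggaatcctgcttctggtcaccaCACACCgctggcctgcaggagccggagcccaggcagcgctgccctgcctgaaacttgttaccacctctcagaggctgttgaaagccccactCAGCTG
Tbx5, 38.0 kb upstream (whole): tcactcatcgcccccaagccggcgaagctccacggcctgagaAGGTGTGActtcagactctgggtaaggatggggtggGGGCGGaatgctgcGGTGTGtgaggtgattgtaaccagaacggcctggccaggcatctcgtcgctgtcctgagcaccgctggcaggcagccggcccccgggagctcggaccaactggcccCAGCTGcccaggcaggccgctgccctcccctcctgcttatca
Tbx5, past the gene end (whole): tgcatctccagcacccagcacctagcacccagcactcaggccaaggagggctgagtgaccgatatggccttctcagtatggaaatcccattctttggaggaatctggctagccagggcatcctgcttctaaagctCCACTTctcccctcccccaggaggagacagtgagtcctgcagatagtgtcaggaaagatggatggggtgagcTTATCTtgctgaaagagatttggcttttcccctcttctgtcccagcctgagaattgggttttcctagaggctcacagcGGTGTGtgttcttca
Tbx2 and Tbx4, upstream (whole): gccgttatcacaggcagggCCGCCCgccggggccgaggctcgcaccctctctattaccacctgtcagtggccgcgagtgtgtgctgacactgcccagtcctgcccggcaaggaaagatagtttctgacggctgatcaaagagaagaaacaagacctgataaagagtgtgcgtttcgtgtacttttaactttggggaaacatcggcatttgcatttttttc

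Tbx3 (ENSMUSG00000018604), the repressor gene, lies on chromosome 5 (plus strand) from 120120678 to 120134733 and has 6 annotated TSSs. It had 5 regions within 100 kb, which 0.165% of protein-coding genes reached or passed, and 4 of the 5 were at no promoter of any gene. Genes with 4 or more such non-promoter regions within 100 kb made up 0.0581% of protein-coding genes. They numbered 13 and, named after their values were seen, included Gata4, Smad7 and the neighbours Hoxb1, Hoxb2, Hoxb3 and Hoxb4, so that some of the 13 shared regions. The highest numbers were those of Gm20388, with 7, and of Gm17379 and Mid1, with 6 each. Skap1, Odz4 and Sp2 were also among the 13. No region lay in the body of Tbx3. The 4 other genes annotated within 100 kb of Tbx3 (Gm2301, Gm16063, Gm16064 and Gm16065) are all listed as noncoding, so that Tbx3 was the nearest protein-coding gene to each of the 5 regions.

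The promoter region of Tbx3 was narrow. It spanned 100 bp, from 120120506 to 120120605, and ended 73 bp before the 5′-most TSS. The same stretch lies in an intron of Gm2301 (ENSMUSG00000087516), a transcript on the opposite strand from 120061272 to 120121374 whose TSS is also within 1 kb, so that the region cannot be assigned to Tbx3 alone. Its GC content was 78.0% and its ratio of observed to expected CpG 1.05, beside medians of 74.1% and 0.903 over the 2566 promoter regions. Promoter regions as a whole had a median width of 420 bp. It held a CCGCCC word and none of the T-box, GATA, NKX or E-box words. The plus strand of chr5:120120506-120120605 is shown because it is the only one of the 7 regions on chromosome 5 at a promoter, with the GC box in capitals.
Tbx3 promoter region (whole): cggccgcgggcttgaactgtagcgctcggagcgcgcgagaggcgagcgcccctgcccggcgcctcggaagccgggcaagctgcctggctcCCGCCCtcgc

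The 3 regions upstream of Tbx3 were wide for regions away from promoters. The farthest, from 120025226 to 120026285, was 1060 bp wide, had its midpoint 94.9 kb upstream and overlapped no annotated gene. It was the only 1 of the 9 regions listed on 2 rows, where 793 of all 3473 regions (22.8%) stood on more than 1 row. A region of 1020 bp, from 120066066 to 120067085, lay in an intron of Gm2301 and 54.1 kb upstream of Tbx3. The nearest, from 120101406 to 120101945, was 540 bp wide and lay 19.0 kb upstream in introns of both Gm2301 and Gm16064 (ENSMUSG00000085345). Over all 907 non-promoter regions the median width was 200 bp, 22.9% were 500 bp or wider and 6.5% were 1000 bp or wider. Of the 7 non-promoter regions at T-box genes, 4 were 500 bp or wider and 2, both upstream of Tbx3, were 1000 bp or wider.

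Both of the widest regions contained simple repeats. The region 94.9 kb upstream held a run of alternating G and A of 42 bp, and the region 54.1 kb upstream held a run of alternating G and T of 28 bp. Uninterrupted dinucleotide runs of 20 bp or more were found in 45 of the 907 non-promoter regions (4.96%) and in 14.9% of those of 500 bp or more. None of the other 7 regions at T-box genes had such a run.

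A region shared by the neighbours lay between Tbx3 and Tbx5. From 120192586 to 120193145, it was 560 bp wide, started 57.9 kb past the end of Tbx3, and had its midpoint 72.2 kb downstream of the 5′-most Tbx3 TSS and 91.8 kb upstream of the Tbx5 TSS. It overlapped no annotated gene. Its sequence was rich in G and T on 1 strand (68.4% of bases), a value that 23 of the 3473 regions (0.662%) reached or passed, beside a median of 53.2%. GC content was 46.6% and the CpG ratio 0.751, so that it was among the 3 of 7 non-promoter regions at T-box genes with a CpG ratio of 0.5 or more, which 33.6% of all non-promoter regions had.

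Tbx5 (ENSMUSG00000018263), the gene mutated in Holt-Oram syndrome, lies on the plus strand from 120284672 to 120335227, and no other gene is annotated within 100 kb of it. It had 3 regions within 100 kb, a number reached or passed by 3.81% of protein-coding genes, and all 3 were at no promoter, which 0.219% of protein-coding genes reached or passed. None lay at the Tbx5 promoter or in its body. Besides the region shared with Tbx3, the stretch from 120246546 to 120246785, 240 bp wide, was listed 38.0 kb upstream, with a GC content of 66.3% that was above the upper quartile of non-promoter regions (64.6%). A region of 300 bp from 120346926 to 120347225 started 11.7 kb past the end of the gene and had few CpGs, at a ratio of 0.0938 beside a median of 0.280 over non-promoter regions.

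Seen together, the 7 regions on chromosome 5 spanned 322 kb and gave 21.7 regions per Mb, where the autosomes had 1.40 per Mb and chromosome 5 had 1.55 per Mb. They included 6 of the 58 non-promoter regions of the chromosome, and the autosomes had 0.362 non-promoter regions per Mb. Gaps between neighbours ran from 18.6 to 100.1 kb, whereas the nearest region before the group was 968 kb away and the nearest after it 190 kb away. Each of the 6 non-promoter regions had 3 to 5 other non-promoter regions within 200 kb. The median for non-promoter regions was 0, and 33 of the 907 (3.64%) had 3 or more. The interval was singled out with the list in view, so its density is given without a test. Its ends were set by the outermost regions themselves, which raises the density. The TSSs of Tbx3 and Tbx5 are 164 kb apart, and no region was listed in the body of either gene.

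**Figure D2:**
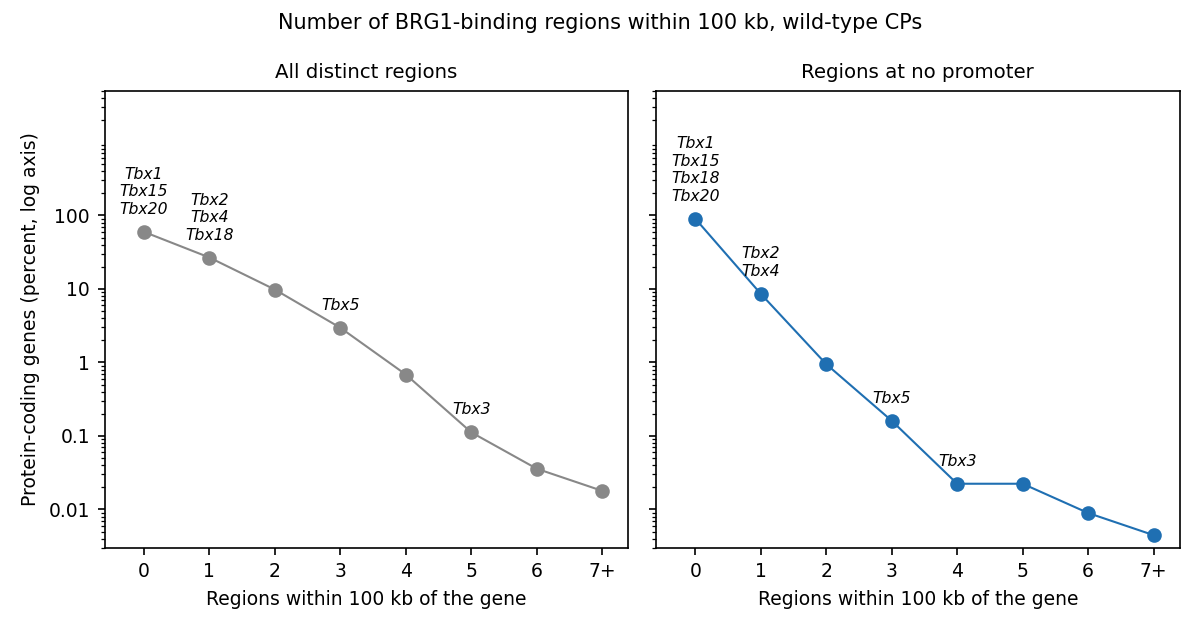
Share of the 22380 protein-coding genes (percent, log axis) by the number of distinct BRG1-binding regions within 100 kb of the gene, for all regions on the left and for regions at no promoter on the right, with the T-box genes written at their number. Tbx3 stands at 5 regions on the left and 4 on the right and Tbx5 at 3 on both sides, whereas Tbx1, Tbx15 and Tbx20 stand at 0 with most genes; neighbouring genes can share a region.

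Tbx18 (ENSMUSG00000032419), the sinus venosus and epicardial gene, lies on chromosome 9 (minus strand) from 87597635 to 87626095, with 1 annotated transcript and no other gene within 100 kb. Its only region, from 87624886 to 87625545, was 660 bp wide and started 550 bp inside the gene, with its midpoint 0.880 kb downstream of the TSS. It counted as a promoter region and as a region in the gene body. With a GC content of 74.8% and a CpG ratio of 0.997, it lay near the medians of promoter regions, 74.1% and 0.903. The region overlapped 176 bp of coding exon and no UTR, and the rest lay in the intron that follows. The part nearest to the TSS, chr9:87625246-87625545 on the minus strand, is shown because it holds this border, with the coding exon in capitals.
Tbx18 region (300 of 660 bases): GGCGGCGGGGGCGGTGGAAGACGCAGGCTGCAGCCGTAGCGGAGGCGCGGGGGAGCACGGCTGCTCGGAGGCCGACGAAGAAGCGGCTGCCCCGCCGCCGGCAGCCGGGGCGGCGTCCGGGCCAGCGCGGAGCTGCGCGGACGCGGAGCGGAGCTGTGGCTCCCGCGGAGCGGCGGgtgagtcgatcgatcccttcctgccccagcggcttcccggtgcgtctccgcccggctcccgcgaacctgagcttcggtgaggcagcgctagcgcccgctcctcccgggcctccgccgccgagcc

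Tbx2 and Tbx4 shared a single narrow region. Tbx2 (ENSMUSG00000000093) lies on chromosome 11 (plus strand) from 85646053 to 85655450 and Tbx4 (ENSMUSG00000000094) on the same strand from 85699924 to 85729599, with TSSs 53.9 kb apart. The region, from 85613506 to 85613725, was 220 bp wide and lay 32.4 kb upstream of the Tbx2 TSS and 86.3 kb upstream of the Tbx4 TSS. It fell in introns of Bcas3 (ENSMUSG00000059439), which spans 473 kb on the plus strand, and of the lincRNA 2610027K06Rik on the other strand. Its GC content was 53.6% and its CpG ratio 0.822. A non-promoter region within 100 kb was found for 4 of the 8 T-box genes (Tbx2, Tbx3, Tbx4 and Tbx5), against 9.75% of protein-coding genes, and the region on chromosome 11 accounts for 2 of these 4 genes. Among the chromosomes that hold the 8 T-box genes, chromosome 11 had the most regions per Mb, 2.73.

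For Tbx1, Tbx15 and Tbx20 no region was listed within 100 kb. Tbx20 (ENSMUSG00000031965, chromosome 9, minus strand, 24527648 to 24578746) had its nearest region 200.1 kb upstream of the TSS, 200 bp wide from 24778706 to 24778905 and in no annotated gene. Tbx1 (ENSMUSG00000009097, chromosome 16, minus strand, 18581806 to 18588113) had its nearest region 383 kb upstream, 360 bp wide from 18971146 to 18971505. Tbx15 (ENSMUSG00000027868, chromosome 3, plus strand, 99044304 to 99158182) had none within 1 Mb, and its nearest region, from 97865406 to 97866505 in Notch2, lay 1178 kb upstream. Closest to the edge of the 100 kb window were, on the inside, the region 94.4 kb before Tbx3, and on the outside the region upstream of Tbx5 that begins 111.8 kb past the end of Tbx3.

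In GC content, the promoters of T-box genes with and without a promoter region overlapped, whereas in CpG ratio the 2 with a region ranked highest. All 8 had a GC content of 50% or more within 1 kb of the TSS, from 53.0% (Tbx18) to 67.2% (Tbx2), beside a median of 51.1% over protein-coding genes. Tbx18 had the highest promoter CpG ratio, 0.943, and Tbx3 the next, 0.816. Tbx2 and Tbx1 followed with 0.771 and 0.706 and had no region at the promoter. The lowest ratio was that of Tbx5, 0.231, and the median over protein-coding genes was 0.468. Whether the CpG ratio goes with a promoter region was not tested. Among the 12499 protein-coding genes with a promoter GC content of 50% or more, 19.4% had a promoter region, beside 2 of these 8.

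**Figure D3:**
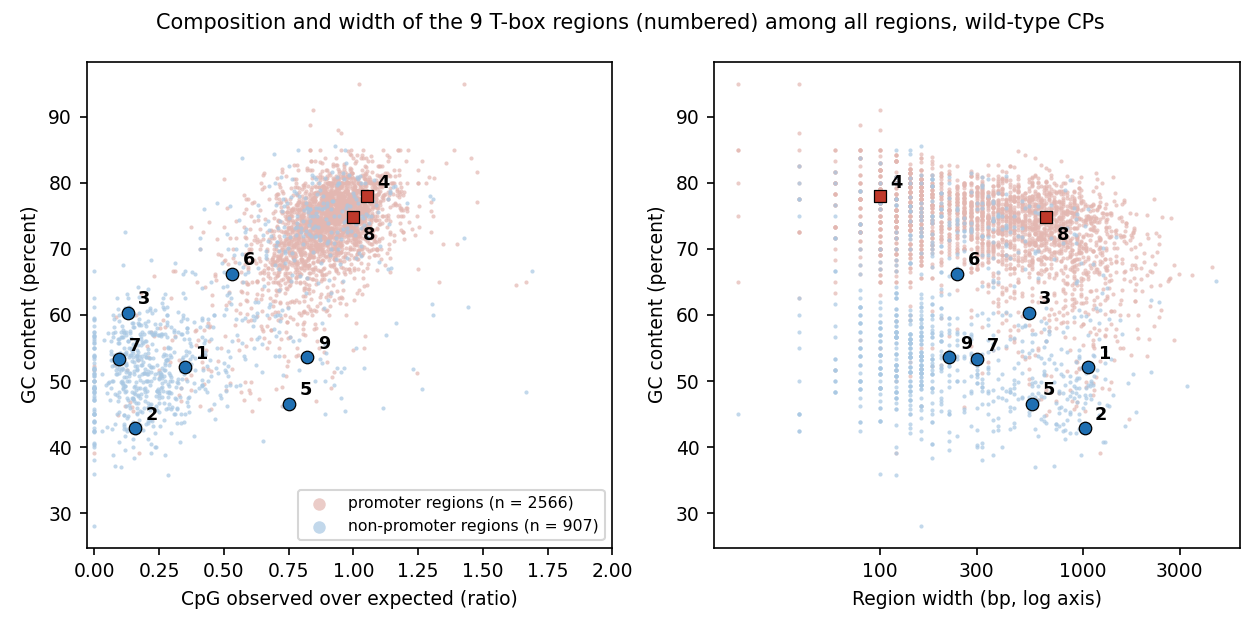
GC content (percent) of the 9 T-box regions against their ratio of observed to expected CpG (left) and their width (right, bp on a log axis), over all 2566 promoter regions (pale red) and 907 non-promoter regions (pale blue). Numbers run along the chromosomes, with 1 to 4 at Tbx3 (4 is its promoter region), 5 between Tbx3 and Tbx5, 6 and 7 at Tbx5, 8 in Tbx18 and 9 at Tbx2 and Tbx4; 4 and 8 lie among the promoter regions, and 1 and 2 are the widest of the 9.

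The full T-box word AGGTGTGA occurred in 1 of the 9 regions, that 38.0 kb upstream of Tbx5, where it lay on the plus strand at chr5:120246588-120246595. It was rare in the list as a whole, in 32 of 3473 regions (0.921%) and in 16 of the 907 non-promoter regions (1.76%). The shorter GGTGTGA was found in the same T-box region only, beside 4.32% of all regions and 6.28% of non-promoter regions. Its core GGTGTG began at position 44 of that region, counted from 1, and another core began at position 93. Each is shown with 7 bases on either side and the core in capitals, at chr5:120246582-120246601 and chr5:120246631-120246650.
Tbx5, 38.0 kb upstream, full word: ctgagaaGGTGTGacttcag
Tbx5, 38.0 kb upstream, core: atgctgcGGTGTGtgaggtg

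The core GGTGTG occurred in 6 of the 9 regions, 5 of them non-promoter, beside 22.7% of all regions and 23.2% of non-promoter regions. This share depends on width. Of non-promoter regions of 500 bp or more 50.5% held the core, and of narrower ones 15.0%. The region between Tbx3 and Tbx5 held 4 of the 11 cores found in the 9 regions, and 22 regions of the list (0.633%) held 4 or more. In the region 54.1 kb upstream of Tbx3, 1 core lay in a stretch of 20 bases with 90% G and T. Of the 4 cores between Tbx3 and Tbx5, 3 lay in stretches with 95% to 100%. The stretches of the remaining cores had 60% to 80%. One of the 3 is shown, at chr5:120192966-120192985.
Between Tbx3 and Tbx5, core: tgtgtgtGGTGTGtgtgtgt

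Among the other words, the GATA word AGATAA occurred in 3 of the 9 regions, those farthest upstream of Tbx3, between Tbx3 and Tbx5, and past the end of Tbx5. It was present in 10.1% of all regions, in 24.9% of non-promoter regions and in 44.2% of those of 500 bp or more. Both GGTGTG and AGATAA were found in 2 of the 9 regions, beside 3.57% of all regions and 7.39% of non-promoter regions. AAGTGG was found in 2 regions (14.7% of all regions), 19.0 kb upstream of Tbx3 and past the end of Tbx5. CAGCTG was found in 2 (23.3%), 19.0 kb upstream of Tbx3 and 38.0 kb upstream of Tbx5. CACGTG was found in 1 (7.69%), between the genes. Shares of non-promoter regions, and of those of 500 bp or more, were 17.0% and 40.4% for AAGTGG. They were 25.8% and 47.1% for CAGCTG, and 4.30% and 11.5% for CACGTG. The GC box CCGCCC was found in 6 (66.3%), which included both promoter regions and 4 of the 7 non-promoter regions. It was present in 80.5% of promoter regions, 26.1% of non-promoter regions and 41.8% of those of 500 bp or more. GGTGTG is contained in the longer T-box words, so their counts overlap. A match describes letters in these windows and does not show that a factor bound there.

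Other gene lists give a scale for these counts. Among all protein-coding genes, 11.9% had a region at a promoter and 40.3% had one within 100 kb. Of the 9 other T-box genes (T, Eomes, Tbr1, Tbx6, Tbx10, Tbx19, Tbx21, Tbx22 and Mga), 1 had a region at a promoter and 6 had a region within 100 kb. The 1 was Tbx21, a regulator of T helper cells, with a region of 180 bp at its TSS and 4 regions within 100 kb, the most in this list. Of the 8 genes of GATA factors and FOG cofactors, 0 had a region at a promoter and 3 had one within 100 kb. Of 10 genes of cardiac partners of T-box factors, 4 had a region at a promoter (Smarcd3, which encodes the BAF subunit BAF60c, Tead1, Isl1 and Srf) and 8 within 100 kb. Gata4 stands both among these partners and among the GATA factors. Of 18 genes listed here as targets of T-box factors, without a cited source, 6 had a region at a promoter, Hcn4 and Fgf8 among them, and 13 within 100 kb. All these lists were chosen with earlier results of these data known.

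The distance from a gene's nearest TSS to the nearest region midpoint had a median of 62.2 kb over the 8 T-box genes and 75.9 kb over the 9 other T-box genes. It was 214 kb over the GATA and FOG genes, 1.93 kb over the cardiac partners and 18.3 kb over the targets, and 166 kb over all protein-coding genes. Among the 8 T-box genes it ran from 0.123 kb at Tbx3 to 1178 kb at Tbx15, and differences between the lists were not tested. Nppa and Gja5, well known targets of TBX5, had no region at a promoter. Nppa had none in its body either and its nearest region was 64.0 kb from the TSS. Gja5 had 2 non-promoter regions in its body, the nearest 22.1 kb from a TSS. The annotated body of Gja5 (96708616 to 96881339) is far longer than that of Nppa (147374831 to 147376188), so these body counts are not alike.

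**Figure D4:**
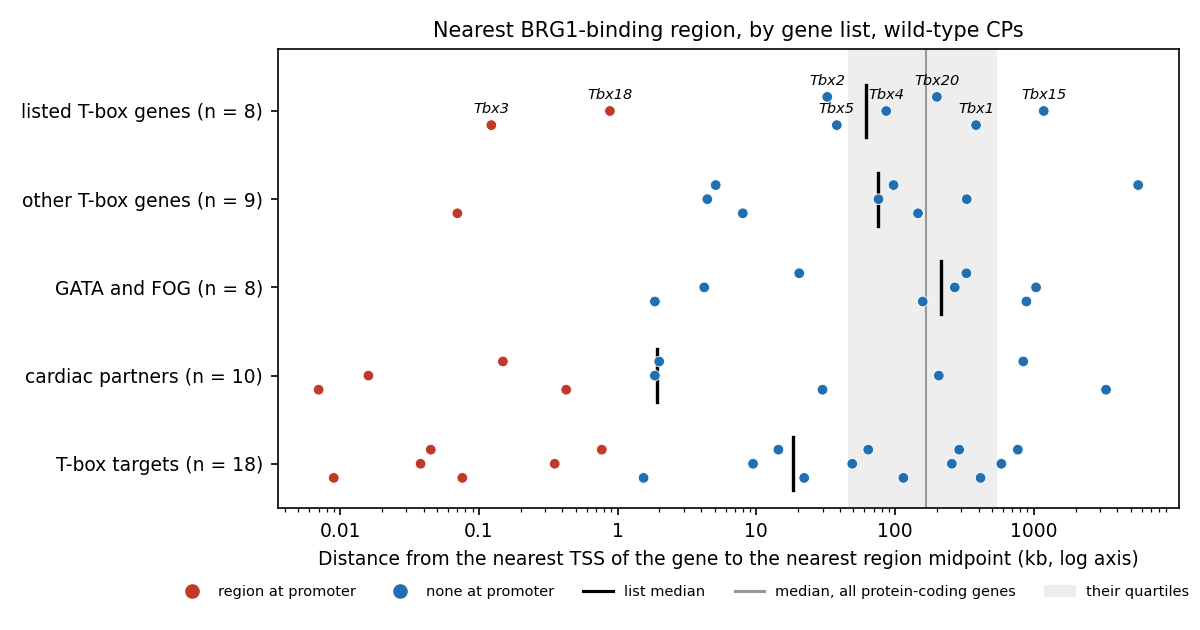
Distance in kb (log axis) from a gene's nearest annotated TSS to the midpoint of the nearest BRG1-binding region, 1 point per gene, for the 8 T-box genes and 4 other lists. Red points have a region at a promoter, black lines are list medians, the grey line is the median of protein-coding genes (166 kb) and the grey band their quartiles (46.3 and 533 kb); Tbx3 and Tbx18 stand apart at the left of the T-box genes and Tbx15 at the right.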

How the data were processed

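BRG1 ChIPseq of wild type CPs was taken from 2 ChIP libraries and 1 input library. The authors used fastq-mcf to trim the reads and Bowtie to align them to the mm9 assembly, dropped reads of low mapping quality, and kept bins that passed a P-value threshold against input. Tool versions and the way the libraries were combined are not given in the sources used here. The deposited list holds mm9 positions in bp without a height, and some regions stand on several of the 4791 rows; each of the 3473 distinct regions was counted once, and whether the repeats are meant is not known.

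Starts were read as counted from 0 and printed counted from 1. Regions were set against mm9 sequence and GENCODE release M1 (37310 genes) with pysam 0.24.0, samtools 1.23.1, pandas 2.3.3 and numpy 2.4.6 under Python 3.11.15, and drawn with matplotlib 3.10.9. Any overlap counted. Promoters reached 1 kb either side of a TSS and windows 100 kb beyond either end of a gene. Counting of regions, promoters, words and repeats was tested on simulated data. No test was made, since the list has no replicates and its regions are shared between genes. The genes, regions and lists were chosen with earlier results of these data known. Named are the 8 genes, their regions, genes that these overlap, and the other T-box gene with most regions. Further genes of the fixed lists, T, and the genes given beside Tbx3 for their number of regions were named after their values were seen. The dinucleotide runs, and the share of promoters by GC content, were added after the regions had been seen. Some names and sequences are not reported here. Alternatives were other promoter widths and windows, counting of rows, merging of regions, other T-box words and fixed windows of 500 bp.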

Additional observations from a re-analysis of the deposited data

How the results depend on the processing

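The number of T-box genes with a region at a promoter fell from 2 to 1, Tbx3 alone, with promoters of 500 bp either side and also with 1 kb upstream only, since the Tbx18 region begins 550 bp inside its gene, and it was 2 with 2.5 kb either side. With regions at no promoter only, 0 of the 8 genes had a region in the body, in place of 1. The number of genes with a region within 100 kb was 5, and it ran from 4 (50 kb, or non-promoter regions only, an alternative chosen after seeing the data) to 6 (200 kb). The 9 distinct regions were 10 by rows, 6 within 50 kb, 10 within 200 kb and 9 after merging of gaps up to 2000 bp. Their median width of 540 bp was 550 bp by rows and 380 bp over the 2 promoter regions. In fixed windows of 500 bp their median GC content was 52.6% and their median CpG ratio 0.592, in place of 53.6% and 0.532. The T-box word was found in 6 regions, not 1, when the core GGTGTG was taken. Over protein-coding genes, the share with a promoter region was 12.4% with 2.5 kb either side, and the share with a region near the gene was 28.5% within 50 kb and 55.5% within 200 kb. Tbx3 had 2 regions within 50 kb and 6 within 200 kb, and Tbx5 had 2 and 5, windows chosen after seeing the data.

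No paired analysis was possible because neither library has values of its own in a list of positions. Leaving out a library and applying a stricter threshold were not run for the same reason, and depth limits the absence of a region at Tbx1, Tbx15 and Tbx20 to an unknown degree.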

Other observations

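The region counts of the remaining T-box genes differed as well. T (Brachyury), the mesoderm gene, had a non-promoter region of 1060 bp centred 5.09 kb upstream of its TSS, as wide as the widest region upstream of Tbx3. In the wider neighbourhood, 2 more regions lay within 500 kb of Tbx5 on its downstream side, of 820 and 100 bp, with midpoints 253 and 345 kb from the TSS and at no promoter. Gata4, which encodes a partner of TBX5, had 4 regions within 100 kb, all at no promoter, the same number of non-promoter regions as Tbx3.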
